A study of Mus musculus with 88 samples.

Results

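The genes described here are 9 mouse genes that were singled out for high levels when the homeobox gene Obox3 was supplied to cells or embryos: Guca1a, Naalad2, Pemt, Chit1, Exoc3l2, Npl, Larp1b, Bex6 and Spic. They were taken by symbol from 2 tables of TPM, read density per gene scaled to the same total in every library, that each hold 55364 genes, and all 9 were found in both and passed the filter on low values in both. The tables cover 25 of the 88 samples of a study of genome activation in the mouse. The first setting is male mouse embryonic stem cells (mESCs), kept naive and pluripotent by LIF together with the MEK inhibitor PD0325901 and the GSK3 inhibitor CHIR99021, and given plasmids by lipofection. Groups of 2 libraries received Obox3 (ES_Obox3), Obox5 (ES_Obox5), Obox6 (ES_Obox6), Dux (ES_Dux) or an empty plasmid (ES_Empty). Another 9 single libraries received Obox1, Obox2, Obox7, Obox8, Obox4-ps27, Obox4-ps35 or a Crxos construct, of which there were 3. The second setting is the late 2-cell stage of wild-type BDF1 clones, obtained by moving a cumulus cell nucleus into an oocyte without its own (SCNT). The clones carried injected mRNA at 10 ng/µl, either Obox3 (SCNT_Obox3_L2C) or EGFP (SCNT_EGFP_L2C). The reference was wild-type BDF1 x BDF1 embryos of the same stage made by intracytoplasmic sperm injection (ICSI_L2C), and each embryo group had 2 libraries.

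Obox genes encode homeodomain proteins of the oocyte and the early mouse embryo, relatives of the Crx and Otx factors, and several are transcribed when the embryonic genome switches on. Dux, another homeobox gene, drives mESCs into a state that resembles the 2-cell embryo. The 9 genes do not form a pathway. Pemt, Naalad2, Chit1 and Npl encode enzymes, Guca1a a calcium sensor, Exoc3l2 a protein of the family of the exocyst subunit EXOC3, Larp1b an RNA-binding protein, Bex6 a member of the small BEX family and Spic an ETS transcription factor. All 9 are annotated as protein-coding (RefSeq, GRCm38.p6): Guca1a at chr17:47394557-47413514, Naalad2 at chr9:18321951-18397538, Pemt at chr11:59970614-60046561, Npl at chr1:153503016-153549714 and Spic at chr10:88675269-88683023 on the minus strand, and Chit1 at chr1:134111242-134151541, Exoc3l2 at chr7:19463287-19496762, Larp1b at chr3:40949770-41040207 and Bex6 at chr16:32179800-32186944 on the plus strand. Guca1a overlaps the pseudogene Gm5814 and the gene 1700001C19Rik, Pemt the long noncoding RNA Gm38498, and Larp1b the RNAs Gm22043 and Gm42437, so the levels of these 3 members are uncertain to the extent that reads were shared.

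Members were chosen with measured values. Which setting chose each one is not recorded, and the values were read from both: Guca1a, Naalad2, Pemt, Chit1 and Bex6 held ranks 6, 13, 15, 23 and 26 by fold change among the 951 genes called higher in ES_Obox3, while Spic, Npl, Exoc3l2 and Larp1b held ranks 11, 14, 16 and 20 among the 20 genes called higher in SCNT_Obox3_L2C. A call means an adjusted p under 0.05 in limma and a log2 fold change of at least 1 in size. For this reason the levels in ES_Obox3 against ES_Empty and in SCNT_Obox3_L2C against SCNT_EGFP_L2C are given below as descriptions without a test. The choice has no threshold of its own, so no gene lies just inside or outside it.

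GGATTA, the core that Crx and Otx homeodomains read, was searched on both strands in RefSeq promoters from 250 bases before to 50 bases after the start (GRCm38.p6). It occurred in 3 of the 11 promoters of the members (27.3%), those of Chit1, Pemt and Guca1a, and in 2320 of all 32851 promoters (7.06%). A longer palindrome was searched separately and occurred in 0 of the 11, and in 11 of all promoters (0.0335%). Its relation to the GGATTA core was not tested, so its count is not read as one of longer forms of that core. The 250 bases before the start are shown for these 3 members because they hold the matches. Capitals mark the match, at position -235 from the start in Chit1 (where it reads TAATCC, since it lies on the opposite strand), -92 in Pemt and -57 in Guca1a. The sequences come from chr1:134110992-134111241 (plus strand), chr11:60040189-60040438 (minus strand) and chr17:47400607-47400856 (minus strand), and the Pemt promoter is 1 of 2 listed for that gene. The Pemt and Guca1a stretches lie inside the gene spans given above, so the starts used are not at the outer end of these genes.
Chit1: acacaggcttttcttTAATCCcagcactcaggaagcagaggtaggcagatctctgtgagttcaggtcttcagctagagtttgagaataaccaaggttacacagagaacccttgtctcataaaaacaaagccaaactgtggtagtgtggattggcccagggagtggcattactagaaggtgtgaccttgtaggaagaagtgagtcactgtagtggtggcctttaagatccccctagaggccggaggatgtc
Pemt: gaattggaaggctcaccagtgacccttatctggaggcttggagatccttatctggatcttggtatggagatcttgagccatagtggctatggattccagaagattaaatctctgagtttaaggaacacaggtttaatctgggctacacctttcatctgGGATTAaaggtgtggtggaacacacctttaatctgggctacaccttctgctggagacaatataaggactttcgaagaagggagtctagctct
Guca1a: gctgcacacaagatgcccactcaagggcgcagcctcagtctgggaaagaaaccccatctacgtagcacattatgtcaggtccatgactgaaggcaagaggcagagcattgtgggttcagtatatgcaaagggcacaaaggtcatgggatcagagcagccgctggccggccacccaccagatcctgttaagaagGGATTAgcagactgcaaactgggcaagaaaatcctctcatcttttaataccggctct
A match of these letters is not a binding site, and whether the matches lie in repeats was not tested.

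The supplied genes were read first as a check of the labels. Obox3 plasmid appeared under the symbol Obox3-ps5, at 450.7 and 262.8 TPM in ES_Obox3 against 0 and 0 in ES_Empty, while the symbol Obox3 had 1.75 and 1.59 TPM in ES_Obox3. How alike the Obox3 and Obox3-ps5 records are, and how reads were divided between them, was not tested, so the levels of both are uncertain. Obox5 had 970.7 and 933.3 TPM in ES_Obox5, Obox6 had 2031 and 1959 TPM in ES_Obox6, and Duxf3 had 1548 and 1979 TPM in ES_Dux. In embryos Obox3-ps5 had 56.8 and 62.4 TPM in SCNT_Obox3_L2C and 1.19 and 6.87 TPM in SCNT_EGFP_L2C, with 117.7 and 99.5 TPM in ICSI_L2C. Between 12071 and 17597 genes per mESC library, and between 15604 and 16450 per embryo library, reached 1 TPM. The 10 most abundant genes took 48.9 to 73.8% of the TPM in mESCs and 57.4 to 72.6% in embryos, and TPM keep no count of the reads behind a value. In bulk libraries a change in the share of cells that express a gene and a change in its RNA per cell cannot be told apart. In each pair of mESC values below the first is replicate 1 and the second is replicate 2 or, for ES_Obox3, ES_Obox5 and ES_Dux, a library whose number is in no label and which is called the unnumbered library.

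In mESCs 8 of the 9 genes met the call rule upward with Obox3 against the empty plasmid, beside 4.67% of all genes. This comparison may have chosen members, so the count is a description. Spic, which was also higher, did not reach the fold required. Pemt, which methylates phosphatidylethanolamine to phosphatidylcholine and is best known from liver, stood at 72.7 and 56.4 TPM in ES_Obox3, 88.5 and 79.9 in ES_Obox5, 4.47 and 6.33 in ES_Obox6, 1.01 and 1.33 in ES_Dux, and 0.894 and 0.39 in ES_Empty. It was thus high with Obox3 and Obox5 and near the empty plasmid with Dux. Naalad2, a glutamate carboxypeptidase that cleaves N-acetylaspartylglutamate, had 73.5 and 42.5 TPM in ES_Obox3, 44.01 and 28.9 in ES_Obox5, 4.35 and 2.09 in ES_Obox6, 2.74 and 2.55 in ES_Dux, and 0.339 and 0.0432 in ES_Empty. Its ES_Obox6 and ES_Dux libraries overlapped. Chit1, a chitinase known from macrophages, had 34.2 and 24.3 TPM in ES_Obox3, 32.8 and 26.3 in ES_Obox5, 3.13 and 3.22 in ES_Obox6, 17.04 and 16.98 in ES_Dux, and was listed at 0 in both ES_Empty libraries. It was the single member whose ES_Dux libraries stood above its ES_Obox6 libraries without overlap. Npl, the lyase that breaks down sialic acid, had 17.05 and 12.05 TPM in ES_Obox3, 11.6 and 10.8 in ES_Obox5, 11.02 and 9.15 in ES_Obox6, 2.77 and 2.91 in ES_Dux, and 1.9 and 1.18 in ES_Empty.

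Guca1a, a calcium sensor that controls guanylate cyclase in photoreceptors, had 90.7 and 67.7 TPM in ES_Obox3, 85.5 and 70.4 in ES_Obox5, 28.8 and 21.1 in ES_Obox6, 5.09 and 5.62 in ES_Dux, and 0.308 and 0.117 in ES_Empty. It had the highest mean of the 9 in ES_Obox3. Exoc3l2 had 11.2 and 8.97 TPM in ES_Obox3, 12.4 and 9.38 in ES_Obox5, 3.02 and 4.01 in ES_Obox6, 0.141 and 0.0498 in ES_Dux, and 0.334 and 0.0511 in ES_Empty. Its ES_Dux and ES_Empty libraries overlapped. Larp1b, of the La-related family of RNA-binding proteins, had 20.9 and 15.5 TPM in ES_Obox3, 20.3 and 15.1 in ES_Obox5, 12.6 and 11.3 in ES_Obox6, 0.715 and 0.91 in ES_Dux, and 2.27 and 1.54 in ES_Empty. Both ES_Dux libraries lay below both ES_Empty libraries. Bex6 had 31.5 and 19.3 TPM in ES_Obox3, 49.5 and 46.6 in ES_Obox5, 11.9 and 8.93 in ES_Obox6, 0.138 and 0.785 in ES_Dux, and was listed at 0 in both ES_Empty libraries. It stood above every ES_Obox3 library in both ES_Obox5 libraries. Spic, which directs red pulp macrophages of the spleen, had 1.34 and 1.34 TPM in ES_Obox3, 1.58 and 0.77 in ES_Obox5, 1.16 and 1.09 in ES_Obox6, 0.221 and 0.313 in ES_Dux, and 0.28 and 0.427 in ES_Empty. Both ES_Obox3 libraries of Spic lay above both ES_Empty libraries, at low levels, and its log2 fold change of 0.79 ± 0.26 (SE; 0.98 after scaling by median ratios) was under the size a call requires.

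**Figure D1:**
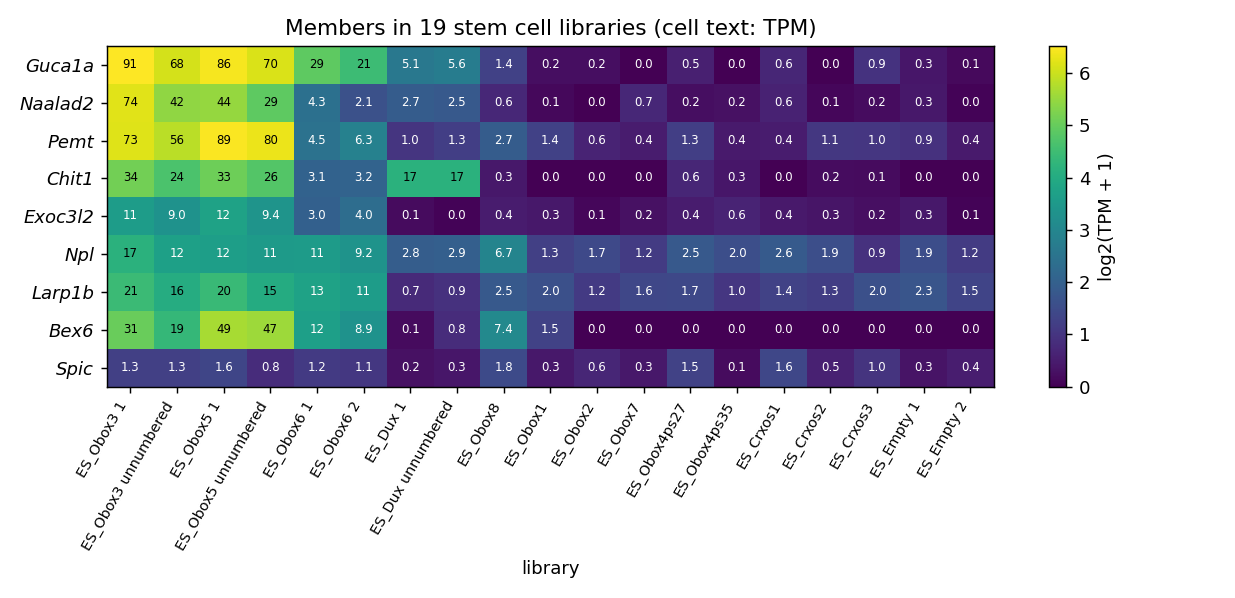
Level of each of the 9 genes (rows) in the 19 mESC libraries (columns), coloured by log2(TPM + 1) and with the TPM printed in each cell. Apart from Spic, which is low in every column, the ES_Obox3 and ES_Obox5 columns hold the high values and ES_Obox6 is intermediate. Chit1 is the gene with a high value in ES_Dux, at 17.04 and 16.98 TPM.

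Against ES_Empty the log2 fold changes with Obox3, on the log2(TPM + 1) scale that understates low genes, were 6.04 ± 0.23 for Guca1a, 5.59 ± 0.35 for Naalad2, 5.33 ± 0.24 for Pemt, 3.22 ± 0.23 for Exoc3l2, 2.72 ± 0.23 for Larp1b and 2.61 ± 0.22 for Npl (SE). On the same scale Chit1 was at 4.90 ± 0.20 and Bex6 at 4.68 ± 0.29. Both ES_Empty libraries of these 2 genes are at 0, so their values depend on the 1 TPM added. The call rule was met upward by 8 of 9 members with Obox3 (4.67% of all 20355 genes tested), 8 with Obox5 (4.79%) and 8 with Obox6 (2.39%), the exception being Spic each time, and downward by 0 (13.6%, 5.47% and 1.99% of all genes). With Dux it was met upward by 3 (4.12%) and downward by 0 (44.4%), the 3 being Chit1, Guca1a and Naalad2, and by 5 after the TPM columns were scaled by median ratios, which added Pemt and Npl. The 4 comparisons share the ES_Empty libraries and the members were chosen on them, so nothing is read from these counts. The median log2 fold change of all genes was -0.42 with Obox3, -0.20 with Obox5, -0.09 with Obox6 and -0.97 with Dux. Except for Spic, every member was higher in ES_Obox3 replicate 1 than in the unnumbered library, by ratios of 1.25 in Exoc3l2 to 1.73 in Naalad2, beside 1.72 for Obox3-ps5 and a median of 1.46 over 12052 genes.

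Relative to ES_Obox3, the means in ES_Obox5 ran from 62.9% for Naalad2 to 189.4% for Bex6. In ES_Obox6 the members parted: Naalad2 reached 5.55%, Pemt 8.36% and Chit1 10.9% of the ES_Obox3 mean, Guca1a 31.5%, Exoc3l2 34.9% and Bex6 41.01%, while Larp1b reached 65.5%, Npl 69.3% and Spic 84.0%. Dux gave 58.2% for Chit1 and at most 19.9% for any other member, that of Spic. All these shares are of TPM without scaling, and ES_Dux carried low TPM for most genes. Scaling by median ratios put the log2 fold change of Chit1 against ES_Empty at 5.05 with Dux and 5.01 with Obox3. Without scaling these were 4.17 and 4.90.

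ES_Obox5, ES_Obox6 and ES_Dux are not among the groups that name the list, and their differences were tested. Whether their values were used in the choice is not recorded. Counts and medians over members in these comparisons therefore describe this list alone. ES_Obox5 against ES_Obox6 asks whether 2 related homeodomain genes leave the same levels. In ES_Obox5, 6 of the 9 genes were called higher and 0 lower, beside 2.4% higher and 2% lower among all genes (limma, Benjamini-Hochberg adjustment over 20355 genes). Pemt differed by the largest amount, a log2 fold change of 3.75 ± 0.24 (adjusted p = 0.000221), followed by Naalad2 at 3.17 ± 0.35 (0.00235) and Chit1 at 2.86 ± 0.20 (0.000428). Bex6 differed by 2.12 ± 0.29 (adjusted p = 0.00487, limma), Guca1a by 1.61 ± 0.23 (0.00536) and Exoc3l2 by 1.39 ± 0.23 (0.0111). Larp1b at 0.52 ± 0.23 (adjusted p = 0.256, limma), Npl at 0.14 ± 0.22 (0.791) and Spic at 0.01 ± 0.26 (1) did not pass. The median was 1.61 over the members and -0.09 over all genes. The call of Guca1a was lost without ES_Obox5 replicate 1 (adjusted p = 0.0577), that of Exoc3l2 without ES_Obox5 replicate 1, without ES_Obox6 replicate 1 or with a pseudocount of 0.1 TPM (0.0974, 0.0828 and 0.135, limma), and that of Bex6 with that pseudocount (0.0674).

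The Dux libraries carried low TPM for most genes, so differences from them are given beside the median of all genes. In ES_Obox5 against ES_Dux that median was 0.70, and 7 members were called higher and 0 lower, beside 28.9% higher and 2.87% lower of all genes. After scaling by median ratios 1468 genes were called higher and 1561 lower, in place of 5880 and 584, and 6 members stayed called higher. Pemt had the largest log2 fold change, 5.30 ± 0.24 (adjusted p = 2.55e-06, limma), then Bex6 at 5.10 ± 0.29 (1.03e-05), Guca1a at 3.63 ± 0.23 (1.77e-05), Exoc3l2 at 3.43 ± 0.23 (2.52e-05), Larp1b at 3.35 ± 0.23 (2.67e-05) and Naalad2 at 3.33 ± 0.35 (0.000189). Npl, at 1.67 ± 0.22 (adjusted p = 0.000584, limma), lost its call with the scaling, at 0.74. Chit1 differed by 0.75 ± 0.20 (adjusted p = 0.0152, limma), under the fold required, and by -0.34 after scaling. Spic differed by 0.76 ± 0.26 (0.043, limma), also under the fold required.

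ES_Obox6 against ES_Dux split the members. Chit1 was lower in ES_Obox6, by a log2 fold change of -2.11 ± 0.20 (adjusted p = 0.000152, limma), and it was the 1 member called lower, beside 3.74% of all genes. In the other direction 6 members were called higher, beside 36.3% of all genes, at a median of 0.85 over all genes and 1.55 over the members. Bex6 at 2.99 ± 0.29 (adjusted p = 0.000151, limma), Larp1b at 2.83 ± 0.23 (7.05e-05) and Exoc3l2 at 2.04 ± 0.23 (0.000296) kept their calls after scaling, where 1156 genes were called higher and 1769 lower. Guca1a at 2.01 ± 0.23 (0.000281), Pemt at 1.55 ± 0.24 (0.000978) and Npl at 1.53 ± 0.22 (0.000834, limma) lost theirs with it, at 0.86, 0.69 and 0.47. Chit1 was at -3.26 after scaling. Naalad2 differed by 0.16 ± 0.35 (adjusted p = 0.718, limma) and by -0.83 after scaling, and Spic by 0.75 ± 0.26 (0.0376), under the fold required. The list of markers of the 2-cell-like state holds Duxf3, which the Dux plasmid supplies, so it is left out here. The other 7 were all called higher in ES_Dux against ES_Empty, and their summed level was 2107 to 2352 TPM in ES_Dux, 11.2 to 14.7 in ES_Obox3, 16.6 to 18.3 in ES_Obox5, 8.2 to 9.62 in ES_Obox6 and 0.135 to 2.09 in ES_Empty. The part of that state in the Chit1 level was not tested.

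**Figure D2:**
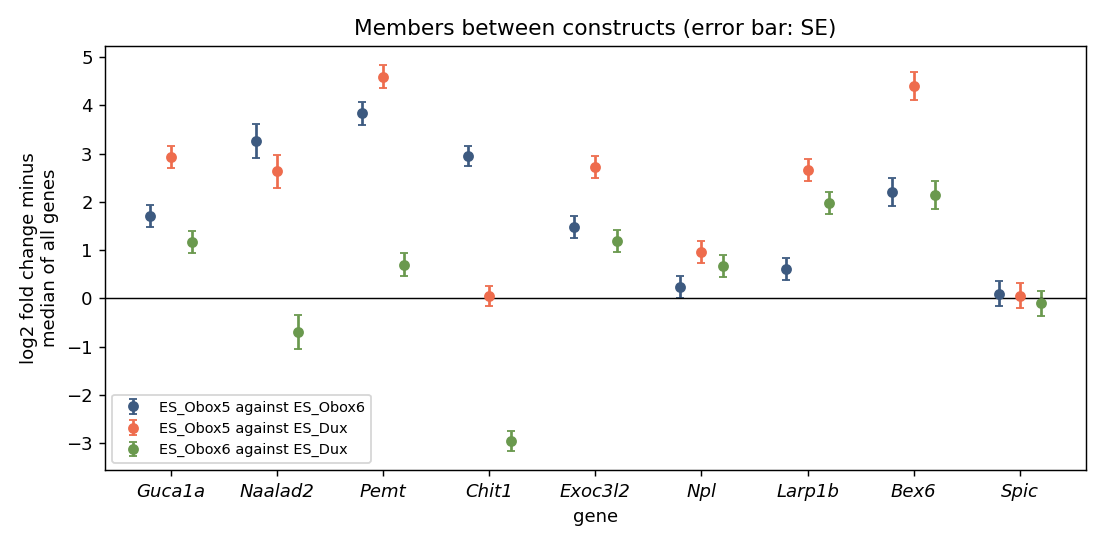
Log2 fold change of each member minus the median of all genes, with its standard error, for ES_Obox5 against ES_Obox6, ES_Obox5 against ES_Dux and ES_Obox6 against ES_Dux (2 libraries a group). Chit1 is the gene furthest below the line in ES_Obox6 against ES_Dux, at -2.96, and Pemt the furthest above it in ES_Obox5 against ES_Dux, at 4.59.

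Of the constructs with 1 library, which give values without a replicate check, Obox8 alone moved several members by 1 or more on the log2(TPM + 1) scale. In that library Bex6 had 7.44 TPM, Npl 6.72, Pemt 2.73 and Spic 1.76, so 4 of 9 passed the fold (6.98% of 23428 genes), and Guca1a had 1.41 TPM. Spic fell short of the fold after scaling, at 0.89. Bex6 had 1.45 TPM with Obox1, the 1 member past the fold there (3.6%). With Obox2, Obox7, Obox4-ps27, Obox4-ps35 and the 3 Crxos constructs 0 of 9 passed, beside 3.49%, 7.03%, 4.61% and 3.62% of all genes for the Obox constructs in that order and 4.32%, 4.03% and 7.57% for the Crxos constructs, and Bex6 was listed at 0 in all 7. In these 8 libraries other than Obox8 Guca1a stayed at or under 0.931 TPM, Naalad2 at or under 0.651, Chit1 at or under 0.614 and Exoc3l2 at or under 0.555. Spic had 1.59 TPM with Crxos1 and 1.45 with Obox4-ps27. These values and that with Obox8 lay above both ES_Obox3 libraries of Spic, at 1.34 TPM, so Spic was not highest with Obox3 in mESCs.

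In late 2-cell embryos every member was expressed in all 6 libraries, and all 9 were higher in both SCNT_Obox3_L2C libraries than in both SCNT_EGFP_L2C libraries (25.4% of all 18252 genes tested were higher without overlap and 26% lower). Spic showed the largest step, with 36.4 and 31.2 TPM in SCNT_Obox3_L2C and 5.09 and 5.24 in SCNT_EGFP_L2C, next to 38.03 and 45.1 in ICSI_L2C. Npl had 33.6 and 29.8 TPM in SCNT_Obox3_L2C, 5.59 and 8.16 in SCNT_EGFP_L2C, and 29.5 and 35.4 in ICSI_L2C. Both genes stood low in the EGFP clones alone. Exoc3l2 had 56.2 and 60.4 TPM in SCNT_Obox3_L2C, 13.6 and 16.6 in SCNT_EGFP_L2C, and 90.8 and 91.4 in ICSI_L2C. Larp1b had 52.1 and 47.3 TPM in SCNT_Obox3_L2C, 17.8 and 16.7 in SCNT_EGFP_L2C, and 116.8 and 125.5 in ICSI_L2C. For both, the Obox3 clones lay between the other groups without overlap. Naalad2 had 28.9 and 29.1 TPM in SCNT_Obox3_L2C, 10.6 and 13.5 in SCNT_EGFP_L2C, and 35.4 and 34.6 in ICSI_L2C.

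Guca1a had 56.9 and 68.1 TPM in SCNT_Obox3_L2C, 34.1 and 43.6 in SCNT_EGFP_L2C, and 96.2 and 76.9 in ICSI_L2C. Pemt had 20.7 and 29.02 TPM in SCNT_Obox3_L2C, 19.6 and 17.3 in SCNT_EGFP_L2C, and 28.8 and 28.7 in ICSI_L2C. The lower of its SCNT_Obox3_L2C libraries lay close to the EGFP clones. Chit1 had 29.8 and 36.3 TPM in SCNT_Obox3_L2C, 19.5 and 29.5 in SCNT_EGFP_L2C, and 23.6 and 30.7 in ICSI_L2C, and its groups nearly met. Bex6 had 100.5 and 95.01 TPM in SCNT_Obox3_L2C, 59.9 and 71.6 in SCNT_EGFP_L2C, and 47.2 and 64.9 in ICSI_L2C, and it was the 1 member above the fertilised embryos without overlap in the Obox3 clones (18.1% of all genes). Below them without overlap were 5 members in the Obox3 clones (41.9% of all genes) and 7 in the EGFP clones (40.8%, with 0 members and 21.9% of all genes higher).

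**Figure D3:**
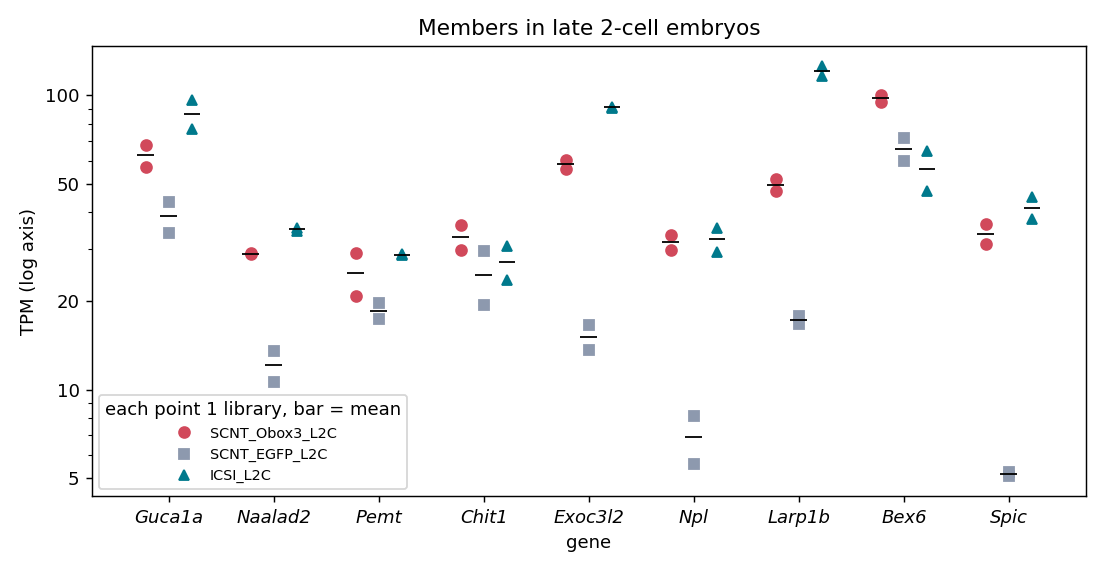
TPM of the 9 genes on a log axis in late 2-cell embryos, 2 libraries a group, with a bar at the mean. The SCNT_Obox3_L2C points lie above the SCNT_EGFP_L2C points for every gene, closest for Chit1 at 29.8 and 29.5 TPM, and the ICSI_L2C points of Larp1b reach 125.5 TPM.

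The log2 fold changes of SCNT_Obox3_L2C against SCNT_EGFP_L2C were 2.49 ± 0.18 for Spic, 2.07 ± 0.22 for Npl, 1.89 ± 0.17 for Exoc3l2 and 1.47 ± 0.16 for Larp1b (SE), the 4 members that met the call rule (0.11% of all genes, with 0 members and 0.0438% of all genes lower). They were 1.21 ± 0.18 for Naalad2, 0.68 ± 0.21 for Guca1a, 0.57 ± 0.21 for Bex6, 0.44 ± 0.25 for Chit1 and 0.39 ± 0.20 for Pemt. Since this comparison may have chosen members, nothing is read from the count, and it fell to 0 without any 1 of the 4 libraries, in a fit of the 2 groups alone and with no filter on low values. The genes that moved most in embryos were not those that moved most in mESCs: Spic was last in mESCs and first in embryos, while Pemt was behind Guca1a and Naalad2 alone in mESCs, among members above 0 TPM in ES_Empty, and last in embryos. The members were picked from the top of 1 setting or the other, so this order is a description. Exoc3l2, Npl and Larp1b met the call rule in both settings. Either setting may have chosen them, and the share of all genes called in both was not counted, so nothing is read from this.

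**Figure D4:**
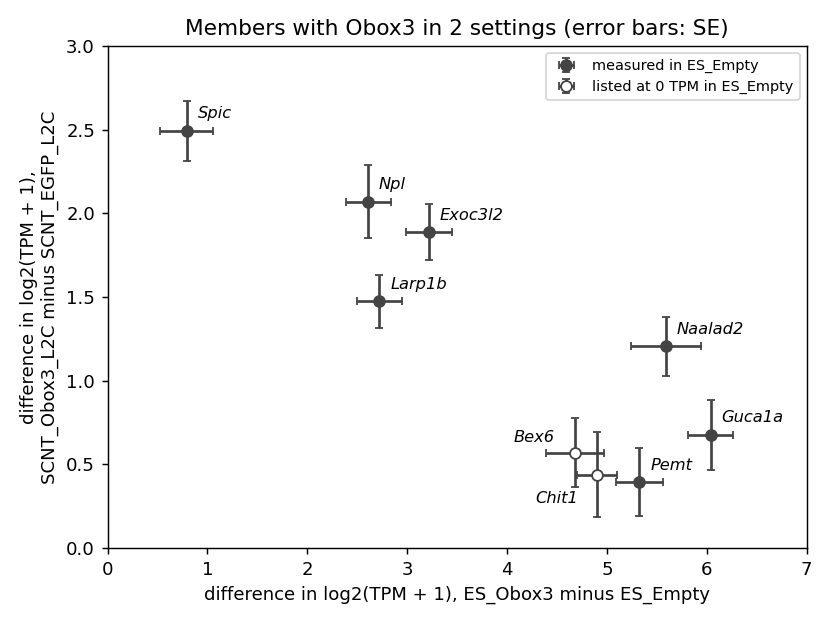
Difference in log2(TPM + 1) with Obox3 for each member in mESCs (ES_Obox3 minus ES_Empty, horizontal) and in embryos (SCNT_Obox3_L2C minus SCNT_EGFP_L2C, vertical), with standard errors from limma. Open points are Chit1 and Bex6, which are listed at 0 TPM in ES_Empty, so that their horizontal place depends on the pseudocount. Spic sits at 0.79 and 2.49, and Guca1a at 6.04 and 0.68.

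How near the clones come to fertilised embryos was read against ICSI_L2C. These comparisons share SCNT libraries with the one that may have chosen members, and a choice for low EGFP values favours a deficit in SCNT_EGFP_L2C. A choice for high Obox3 values likewise favours SCNT_Obox3_L2C levels near or above ICSI_L2C. This concerns Spic, Npl, Exoc3l2 and Larp1b most. Since the setting that chose each member is not recorded, it may concern any other member too. The p-values and counts of members against ICSI_L2C are therefore descriptions. In SCNT_EGFP_L2C against ICSI_L2C 6 members were called lower and 0 higher, beside 12.5% and 4.8% of all genes, with a median of -1.47 over members and -0.20 over all genes. Spic was lower by a log2 fold change of -2.78 ± 0.18 (adjusted p = 0.00117, limma), Larp1b by -2.74 ± 0.16 (0.000978), Exoc3l2 by -2.52 ± 0.17 (0.00125), Npl by -2.10 ± 0.22 (0.0029), Naalad2 by -1.47 ± 0.18 (0.00387) and Guca1a by -1.14 ± 0.21 (0.0125). Guca1a lost its call without ICSI_L2C replicate 1 (adjusted p = 0.0574), without SCNT_EGFP_L2C replicate 1 (0.0641, limma) and after scaling, at -0.92. Pemt at -0.61 ± 0.20 (adjusted p = 0.0757, limma), Chit1 at -0.16 ± 0.25 (0.689) and Bex6 at 0.24 ± 0.21 (0.452) did not pass.

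In SCNT_Obox3_L2C against ICSI_L2C Larp1b was the 1 member called lower, at -1.27 ± 0.16 (adjusted p = 0.00964, limma), beside 6.31% of all genes, and 0 were called higher, beside 2.8%. Without SCNT_Obox3_L2C replicate 2 its adjusted p was 0.0633 (limma). Exoc3l2 at -0.64 ± 0.17 (adjusted p = 0.057, limma) and Bex6 at 0.81 ± 0.21 (0.0534) came close to the threshold, and Bex6 was called higher after scaling, at 1.06 (0.0135, limma). The median was -0.26 over members and -0.22 over all genes. As a share of the ICSI_L2C mean, the Obox3 and EGFP clones held 97.6% and 21.2% for Npl, 82.8% and 34.5% for Naalad2, 81.4% and 12.4% for Spic, 64.0% and 16.6% for Exoc3l2, and 41.004% and 14.2% for Larp1b. For Guca1a the shares were 72.2% and 44.9%, for Pemt 86.5% and 64.2%, for Chit1 121.6% and 90.1%, and for Bex6 174.4% and 117.3%. Of 6 oocyte markers 0 were called in SCNT_Obox3_L2C against SCNT_EGFP_L2C. Since 0.11% of all genes were called higher there and 0.0438% lower, that count cannot show an absence of change. The sum of the 6 was 348.2 to 362.6 TPM in SCNT_Obox3_L2C, 419.8 to 451.04 in SCNT_EGFP_L2C and 541.96 to 617.2 in ICSI_L2C. The sum of 6 cumulus cell markers, the type of the donor nucleus, was 1.85 to 3.62, 2.54 to 2.67 and 0.842 to 2.83 TPM in the same groups. The same 7 markers of the 2-cell-like state summed to 183.4 to 267.8 TPM in SCNT_Obox3_L2C, 121.9 to 170.8 in SCNT_EGFP_L2C and 512.04 to 708.97 in ICSI_L2C. The part of any of these in the results was not tested.

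Chit1 and Spic are known from macrophages and Guca1a from photoreceptors, so markers of those cells were read in mESCs. Macrophage markers summed to 7.17 to 13.8 TPM in ES_Obox3 and 6.02 to 6.4 TPM in ES_Empty over 8 genes, most of it Cd68, with Adgre1 at 0 in both ES_Obox3 libraries. Photoreceptor markers summed to 3.89 to 6.87 TPM in ES_Obox3 and 1.26 to 2.07 TPM in ES_Empty over 10 genes, with Gngt1 at 0 in every library of both. Of each list 2 genes could be tested and 0 were called (1 of each after scaling), beside 4.67% of all genes called higher and 13.6% lower. With 2 genes tested, such a count cannot show an absence of change. Of 7 pluripotency markers 4 were called lower in ES_Obox3, 2 after scaling, beside 13.6% of all genes called lower. Their sum was 968.9 to 1260 TPM in ES_Obox3, below the 1978 to 2328 TPM in ES_Empty. Their part in the members' levels was not tested.

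Relatives of the members were read from lists of pathway partners and family members in ES_Obox3 against ES_Empty, where 4.67% of all genes were called higher. Around Pemt, 3 of the 12 tested genes of phosphatidylcholine and phosphatidylethanolamine synthesis rose and 1 fell, where 13.6% of all genes were called lower, with a median of 0.09 over the list. Chka, the choline kinase that starts the cytidine pathway, had 30.5 and 22.1 TPM in ES_Obox3 and 5.04 and 6.33 TPM in ES_Empty, a log2 fold change of 2.02 ± 0.22 (adjusted p = 0.000565, limma). Pcyt2, which makes CDP-ethanolamine, had 33.3 and 28.5 TPM in ES_Obox3 and 6.43 and 5.59 TPM in ES_Empty (2.18 ± 0.19, adjusted p = 0.000233, limma). Chpt1, which joins CDP-choline to diacylglycerol, had 8.26 and 5.88 TPM in ES_Obox3 and 2.03 and 1.39 TPM in ES_Empty (1.57 ± 0.23, adjusted p = 0.00191, limma). Pcyt1b, which makes CDP-choline, fell by 2.04 ± 0.33 (adjusted p = 0.0029, limma). The same 3 genes rose in ES_Obox5, by 1.85, 2.21 and 1.55, and in ES_Obox6, by 1.25, 2.52 and 1.19, against the shared ES_Empty libraries. In ES_Obox6 the calls of Chka and Chpt1 were lost without any 1 of the 4 libraries, while that of Pcyt2 was kept. With Dux 0 of the 12 rose and 10 fell, beside 4.12% and 44.4% of all genes, and 0 fell after scaling. In SCNT_Obox3_L2C against SCNT_EGFP_L2C 0 of 12 were called either way, beside 0.11% of all genes called higher and 0.0438% lower, and Pemt itself stood at 0.39.

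Of the partners of Guca1a, 2 of 2 tested rose in ES_Obox3: Guca1b, its retinal paralog, and Gucy2e, a guanylate cyclase of photoreceptors, at 2.34 and 1.4 TPM in ES_Obox3 and 0.0292 and 0.0223 TPM in ES_Empty (1.47 ± 0.30, adjusted p = 0.00795, limma). Of the La-related proteins Larp4 rose, to 84.6 and 53.4 TPM in ES_Obox3 against 27.1 and 19.1 TPM in ES_Empty (1.52 ± 0.27, adjusted p = 0.00479, limma), and Larp4b and Ssb fell, though not after scaling. None of 10 exocyst genes, 10 genes of sialic acid metabolism, 7 BEX and TCEAL genes, 2 glutamate carboxypeptidase relatives or 1 chitinase relative rose, and after scaling 1 gene of sialic acid metabolism did. Among them 2 exocyst genes, 2 of sialic acid metabolism and 5 of the BEX list fell, beside the same 13.6% of all genes. After scaling 2 exocyst genes, 1 of sialic acid metabolism and 0 of the BEX list did. Hmox1, the 1 tested gene on the list around Spic, fell.

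Neighbouring genes were checked for a shared response along the chromosome. The nearest protein-coding gene on each side of the members gave 18 genes, of which 13 could be tested in mESCs. With Obox3 2 rose and 1, Btg2, fell (not after scaling), beside 4.67% and 13.6% of all genes. Guca1b, whose annotation ends 1.6 kb from Guca1a, had 4.41 and 2.67 TPM in ES_Obox3 and 0.11 and 0.336 TPM in ES_Empty (1.87 ± 0.27, adjusted p = 0.00169, limma). Ubtfl1, an HMG-box gene of the preimplantation embryo that lies 6.9 kb from Naalad2, had 3.63 and 3.53 TPM in ES_Obox3 and 0.364 and 0.0463 TPM in ES_Empty (1.94 ± 0.29, adjusted p = 0.0021, limma). In embryos it had 51.8 and 44.01 TPM in SCNT_Obox3_L2C, 14.8 and 15.2 in SCNT_EGFP_L2C, and 73.9 and 51.7 in ICSI_L2C. Of 14 tested neighbours 0 were called in SCNT_Obox3_L2C against SCNT_EGFP_L2C (1 higher after scaling), beside 0.11% of all genes called higher and 0.0438% lower. The other 10 tested neighbours of the members did not pass in ES_Obox3.

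Genes with the most similar profile over the 19 mESC libraries were ranked by Pearson correlation with the mean of the members' standardised profiles, among 7405 genes that reached 10 TPM in at least 2 libraries. The first 10 were Gm12617 (r = 0.989), Gm49064, Gm5435, Gpr161, Aqp9, Gm50461, Fbxo15, Slc1a1, Gm12616 and Gm5590 (r = 0.969). Libraries of the same construct are not independent points, so these values describe a likeness and carry no p. Gm12617 averaged 433.4 TPM in ES_Obox3, 496.8 in ES_Obox5, 52.6 in ES_Obox6, 2.42 in ES_Dux and 0 in ES_Empty. Aqp9, a water and glycerol channel, averaged 25.98 TPM in ES_Obox3, 12.8 in ES_Obox5, 6.17 in ES_Obox6, 1.77 in ES_Dux and 0.0743 in ES_Empty. For single members the closest genes were Gm50461 for Guca1a (0.9996), Gm5435 for Naalad2 (0.983), Alppl2 for Pemt (0.983), Gm11544 for Chit1 (0.984), 2010300C02Rik for Exoc3l2 (0.989), Gm12617 for Npl (0.959), Trim43b for Larp1b (0.986), Efnb2 for Bex6 (0.987) and Hspa1b for Spic (0.821). Among the members themselves r ran from 0.67 (Chit1 with Larp1b) to 0.969 (Exoc3l2 with Larp1b) without Spic, whose values with the others were 0.231 to 0.614.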

How the data were processed

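The authors deposited TPM per gene in 2 tables, per the file headers: an mESC table with 19 libraries and an embryo table with 6. Total RNA was made into libraries with a stranded SMART-seq kit, per the labels' protocols. HISAT2, featureCounts 1.6.5, Trim Galore and mm10 are listed in the submitters' processing notes. For the annotation, the strand setting and reads shared by overlapping or near-identical genes, the sources used here give nothing. The other 63 samples were not analysed here. The tables were normalised separately, so tests ran within a table. TPM keep no depth, and with 2 libraries a group precision is limited by their number. Nothing in the labels ties replicates to separate cultures or embryo collections, so the p-values reflect how these samples vary, and that variation may be technical.

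Genes reaching 1 TPM in at least 2 libraries were turned into log2(TPM + 1) and fitted with limma 3.58.1 under R 4.3.3 (robust empirical Bayes through statmod 1.5.0, prior variance following mean level), and p-values were adjusted by Benjamini and Hochberg over all genes tested. The fits took 10 replicated mESC libraries (5 residual and 3.71 prior degrees of freedom) or the 6 embryo libraries (3 and 3.48). The scripts were tested on simulated data. For 3 mESC columns, of ES_Dux, ES_Obox3 and ES_Obox5, the name gives the group but no labelled sample. The genes and lists were chosen with earlier results of these data known. A test planned for SCNT_Obox3_L2C against SCNT_EGFP_L2C is given as a description, because that comparison may have chosen members. Named genes are the 9 members, their nearest coding neighbours, listed relatives and markers, the supplied genes and the genes most like the members in profile. The alternatives were a pseudocount of 0.1 TPM, no filter, median-ratio scaling, a fit of 2 groups alone, the replicate number as a block (in mESCs by column header, added after seeing the data) and leaving out each library. Positions and promoters are from RefSeq (GRCm38.p6).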

Additional observations from a re-analysis of the deposited data

Results flagged for a closer look

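Larp1b was higher in every ES_Obox5 and every ES_Obox6 library than in both ES_Empty libraries, and lower in every ES_Dux library than in both. The direct difference was a log2 fold change of 3.35 in ES_Obox5 against ES_Dux (adjusted p = 2.67e-05, limma) and 2.83 in ES_Obox6 against ES_Dux (adjusted p = 7.05e-05, limma). Dux itself was not called to change Larp1b: ES_Dux against ES_Empty gave -0.67 ± 0.23 (SE), where the median of all genes was -0.97, and 0.14 after median-ratio scaling.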

How the results depend on the processing

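Median-ratio scaling left 3 members called higher in ES_Obox6 against ES_Dux, 5 in ES_Dux against ES_Empty and 1 in SCNT_Obox3_L2C against ICSI_L2C, in place of 6, 3 and 0. In SCNT_Obox3_L2C against SCNT_EGFP_L2C the 4 calls fell to 0 with no filter, in the fit of 2 groups alone, with the replicate block, and without any 1 library (0 to 0). Where 1 library is left out, the lone sample is assumed to vary like the other groups. Without 1 library, the member called lower in SCNT_Obox3_L2C against ICSI_L2C ranged from 0 to 1. Replicate numbers share only a number: differences between same-numbered embryo libraries correlated by 0.014 to 0.0666, and the replicate block changed no count of members in the other embryo comparisons. In mESCs the library called unnumbered carries in its column header a 3 that no label of its group has. Differences between libraries of the same header numbers correlated by -0.0145 to 0.0457, so these too share only a number. A replicate block by header number, an alternative chosen after seeing the data, called 4 members higher in ES_Obox5 against ES_Obox6 in place of 6, at adjusted p = 0.0506 for Exoc3l2 and 0.0531 for Bex6 (limma). Over all genes it called 235 higher and 153 lower there in place of 489 and 408, and 640 lower in ES_Obox5 against ES_Empty in place of 1114. It changed no count of members in the other mESC comparisons.

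Signs turned for small differences. Scaling gave -0.34 for Chit1 in ES_Obox5 against ES_Dux, -0.83 for Naalad2 in ES_Obox6 against ES_Dux, 0.0252 for Pemt and 0.22 for Npl in SCNT_Obox3_L2C against ICSI_L2C, and 0.0502 for Chit1 in SCNT_EGFP_L2C against ICSI_L2C. Spic in ES_Obox5 against ES_Obox6 was -0.0195 with a pseudocount of 0.1 TPM. Without 1 library the log2 fold changes ran from -0.26 to 0.28 for Spic in ES_Obox5 against ES_Obox6, -0.24 to 0.55 for Naalad2 in ES_Obox6 against ES_Dux, -0.45 to 0.0119 for Pemt and -0.16 to 0.10 for Npl in SCNT_Obox3_L2C against ICSI_L2C, -0.45 to 0.13 for Chit1 in SCNT_EGFP_L2C against ICSI_L2C, and -0.0201 to 0.25 for the neighbour Guca1b in ES_Dux against ES_Empty, where leaving out libraries was an alternative chosen after seeing the data, as in all comparisons with ES_Empty. The cause was not tested.

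Counts over all genes moved more than those of members. In SCNT_Obox3_L2C against SCNT_EGFP_L2C 20 genes were called higher, 35 with the lower pseudocount, 257 after scaling, 0 with no filter, in 2 groups or with the block, and 0 to 5 without 1 library. Scaling gave 1596 higher and 763 lower in ES_Obox3 against ES_Empty in place of 951 and 2770, and 1660 higher and 439 lower in ES_Dux against ES_Empty in place of 838 and 9029. ES_Obox5 against ES_Obox6 had 489 higher, 322 with no filter and 124 to 254 without 1 library. Low TPM rest on few reads, which limits Spic in mESCs.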

Other observations

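The record Gm50461 followed Guca1a in level as well as in profile. In the 15 libraries of both tables where Guca1a had at least 1 TPM, Gm50461 stood at 0.827 to 1.01 times the Guca1a TPM. Whether the records share reads was not tested.

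Gata4 and Gata6, factors of primitive endoderm, were the 2 genes called higher in ES_Obox3 against ES_Empty among 3 tested markers of that lineage. Of all genes 4.67% were called higher there and 13.6% lower. Gata4 had 25.02 and 14.7 TPM in ES_Obox3 and 0.344 and 0.525 TPM in ES_Empty. The sum of the 6 markers was 15.99 to 26.8 TPM in ES_Obox3, most of it Gata4, and 0.67 to 1.69 TPM in ES_Empty. It was 21.2 to 22.6 TPM in ES_Obox5, 12.9 to 14.1 in ES_Obox6 and 0.744 to 1.36 in ES_Dux. Of 4 tested trophoblast markers Krt18 and Hand1 were called higher in ES_Obox3 and Eomes lower, beside the same shares of all genes.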
